A study of Mus musculus with 6 samples.

Results

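The 10 genes described here encode transcription factors that set up and run the differentiation of epidermal keratinocytes: Trp63, Tfap2a, Klf4, Klf5, Grhl1, Grhl2, Grhl3, Ovol1, Cebpa and Cebpb. They are defined by gene name, as every probe set that the platform annotation assigns to 1 of these genes alone, and the list was drawn up with earlier results of these data known. A probe set is a group of short oligonucleotides that together report 1 transcript. The 10 genes have 23 of the 34945 probe sets that name a single gene, among 18193 genes in all. Their signals were compared on 6 Affymetrix arrays, each from a FACS-sorted cell population of mouse skin.

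The mice were labelled Ezh1/2 2KO or Ezh1/2 WT. Both genes encode histone methyltransferases of the Polycomb group, whose complex marks histone H3 and holds many developmental genes silent. From each genotype, 3 populations were sorted: basal epidermal cells, the progenitor layer of the epidermis; matrix cells, the dividing cells of the hair bulb; and ORS cells, which form the outer root sheath around the follicle. All mice were 14 days old, on a mixed C57B6 and CD1 background. The 2KO basal epidermis came from females, and the other 5 samples came from both sexes. The driver of the deletion, the cells in which it acted, the number of mice per sample and whether the sorted populations share mice are not given in the sources used here.

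Each of the 6 groups had 1 array, so a ratio within a population has no replicate error and no test. The only test here is of the genotype over the 3 populations together. Ratios of 2-fold or more, the limit in the series text, are called higher or lower. Signals below 83.2 units, the median over all probe sets and arrays, were raised to that floor before ratios were taken, and a gene below it on both arrays of a pair counted as not measured. Each gene is given by its brightest probe set on average over the arrays, and all 10 factors were above the floor on all 6 arrays. Levels are compared between arrays for the same probe set, never between genes. Array medians lay between 72.6 and 99.0 units, and 47.8% to 53.1% of probe sets on an array exceeded the floor.

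As background, the stratified epidermis renews itself from a basal layer, whose cells leave the basement membrane, stop dividing and pass through spinous and granular layers before they cornify. The p63 protein, product of Trp63, maintains the basal state and starts stratification. Grainyhead-like, KLF, AP-2, C/EBP and OVOL factors act with it or after it, and in mice loss of Klf4 or Grhl3 leaves the skin barrier incomplete.

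On these arrays the targeted genes were lower in 2KO. The only Ezh2 probe set was lower by 5.93-fold in basal epidermis, 2.07-fold in the matrix and 5.69-fold in the ORS. The brightest Ezh1 probe set was lower by at least 4.82-fold, by 3.54-fold and by at least 4.57-fold in the same order. Ezh2 still read 1725 on the 2KO matrix array, against 432 in 2KO basal epidermis and 378 in 2KO ORS. On the WT arrays it read 3578 in matrix, 2563 in basal epidermis and 2151 in ORS. Summed signals of 16 markers of the matrix and its hair-forming lineages were 64451 on the 2KO and 79978 on the WT matrix array and between 2449 and 7236 on the other 4. Of 6 basal epidermis markers the sums were 134992 in 2KO and 123810 in WT basal epidermis, 57871 in 2KO and 55110 in WT ORS, and 43717 in 2KO and 16778 in WT matrix. Of 11 ORS and stem cell markers, 6 were 2-fold lower in basal epidermis than in ORS within 2KO and 4 within WT, and 0 were higher. Lhx2 read 520 in 2KO and 141 in WT basal epidermis, against 5050 in 2KO and 4349 in WT ORS. The sums of this list hold keratins shared by both populations and lay close together, at 105849 in 2KO and 115452 in WT basal epidermis and 113045 in 2KO and 121488 in WT ORS. The 2KO matrix array stood apart from its WT array in the same markers, with a summed signal of 85728 in 2KO against 27215 in WT. On the same pair, 10 of 14 immune markers were above the floor in 2KO against 6 in WT (summed signal 6411 in 2KO against 1719 in WT). Of 10 skeletal muscle markers 8 were above it in 2KO against 3 in WT (3744 in 2KO against 644 in WT), and 12 fibroblast markers summed to 40416 in 2KO against 20986 in WT. These differences stand beside every matrix value below, and their part in it was not tested. In sorted populations measured as a whole, fewer cells of a type and less RNA per cell cannot be told apart.

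Promoter sequences were available for 6 of the 10 genes, from RefSeq on the GRCm38.p6 build, as 250 bases before to 50 bases after each annotated start. Those of Grhl3 and Cebpa are shown because these were the 2 factors that differed by 2-fold between the genotypes, and that of Klf4 because it is among the most CpG-rich of the set. Capitals mark CpG dinucleotides, which are dense in promoters of the kind that Polycomb complexes bind. Each is printed 5′ to 3′ on the gene's strand.
Grhl3, chr4:135573583-135573882, minus strand: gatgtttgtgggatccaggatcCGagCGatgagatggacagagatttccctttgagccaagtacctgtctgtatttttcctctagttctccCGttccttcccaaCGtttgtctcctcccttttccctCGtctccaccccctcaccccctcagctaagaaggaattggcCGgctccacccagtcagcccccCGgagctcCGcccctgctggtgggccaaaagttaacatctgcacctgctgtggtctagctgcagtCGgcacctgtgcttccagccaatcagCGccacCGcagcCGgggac
Cebpa, chr7:35119043-35119342, plus strand: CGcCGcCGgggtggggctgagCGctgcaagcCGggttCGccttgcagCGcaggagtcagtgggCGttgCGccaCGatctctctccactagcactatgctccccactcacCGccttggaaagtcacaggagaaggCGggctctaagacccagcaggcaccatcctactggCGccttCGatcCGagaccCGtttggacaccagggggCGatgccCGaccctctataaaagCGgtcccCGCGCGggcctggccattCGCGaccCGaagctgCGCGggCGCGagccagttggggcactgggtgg
Klf4, chr4:55532426-55532725, minus strand: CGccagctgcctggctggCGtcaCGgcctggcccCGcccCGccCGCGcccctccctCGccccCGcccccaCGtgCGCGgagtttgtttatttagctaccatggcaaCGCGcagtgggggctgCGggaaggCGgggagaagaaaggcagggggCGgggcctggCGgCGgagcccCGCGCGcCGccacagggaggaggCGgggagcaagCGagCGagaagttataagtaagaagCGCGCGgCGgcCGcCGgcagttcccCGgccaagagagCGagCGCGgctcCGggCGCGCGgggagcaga

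The Grhl3 promoter held 12 CpG dinucleotides, an observed over expected ratio of 0.492, which 42.4% of all 32851 promoters in the table reached. The Cebpa promoter held 29, with a ratio of 0.853 that 16.5% reached, and the Klf4 promoter 40, with a ratio of 0.974 that 7.44% reached. The median promoter had 7 and a ratio of 0.384. Among the genes that stayed within 2-fold, Cebpb had a ratio of 1.03 (50 CpG), the 2 Grhl1 promoters 0.865 (35 CpG) and 0.0 (0 CpG), and the 2 Tfap2a promoters 0.71 (11 CpG) and 0.621 (15 CpG). The ratio of Cebpa lay inside the range of the others. That of Grhl3 was above only the Grhl1 promoter with 0 CpG and below the rest. Whether CpG content goes with the differences between the genotypes was not tested. Among all 8 promoters of the 6 genes, the KLF motif CACCC was found on either strand in 6, the AP-2 motif GCCNNNGGC in 2, and the grainyhead motif AACNGGTT, the C/EBP motif TTGCNNAA, the OVOL motif CCGTTA and a p63 half-site pair in 0. Of all promoters in the table, 57.5% held the KLF motif, 16.6% the AP-2 motif, 2.09% the grainyhead, 10.8% the C/EBP, 2.76% the OVOL and 0.712% the p63 motif, with overlapping matches allowed. Letter matches of this kind are a description of the sequence only.

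The 10 factors were first compared between 2KO and WT within each population. In basal epidermis 1 of 10 was higher, Grhl3, and 0 were lower, where 10.7% of all 11527 measured genes differed by 2-fold, 6.59% of all being higher and 4.09% lower. Among matrix cells 0 of 10 differed, where 10.7% of 11661 genes did, 9.03% higher and 1.62% lower. In ORS 1 of 10 was lower, Cebpa, and 0 were higher, where 12.9% of 11994 genes differed, 8.16% higher and 4.75% lower. The share of factors called is thus near the share of all genes in basal epidermis and ORS. With 10 factors, 0 called in matrix cannot be told apart from the share of 10.7%. The share of all calls that were higher depended on the scaling in matrix, where it was 84.8% as deposited, 55.4% with arrays set to a common median and 17.9% with arrays set to their hybridisation controls, and in ORS, where it was 63.2%, 39.0% and 48.9%. Those scalings moved the median log2 ratio of all measured genes from 0.03 to -0.24 and -0.58 in matrix and from 0.01 to -0.24 and -0.14 in ORS.

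**Figure D1:**
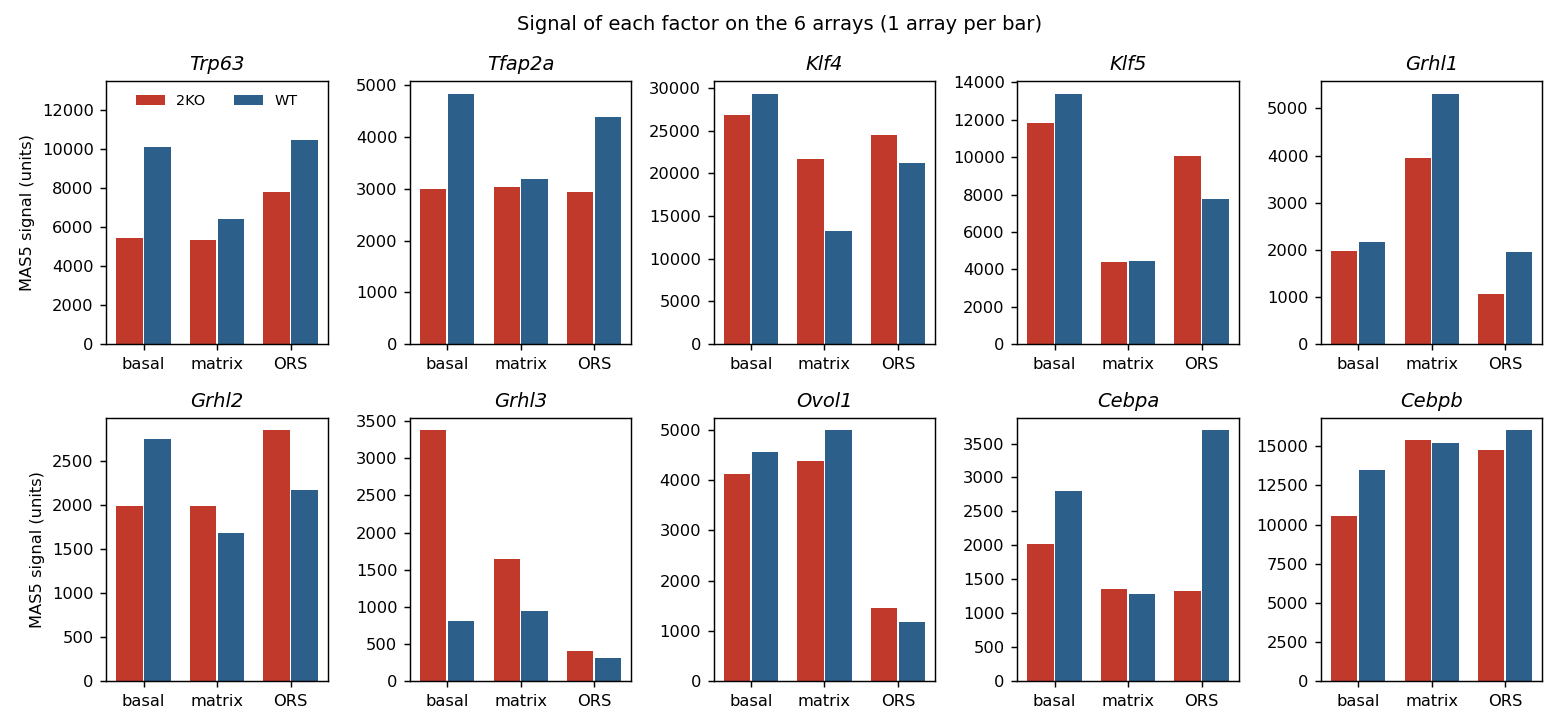
MAS5 signal (linear units, axis from 0) of each of the 10 factors on the 2KO (red) and WT (blue) arrays of basal epidermis, matrix and ORS, 1 array per bar and no error bars. The 2KO basal epidermis bar of Grhl3 (3379) is the tallest of that gene, and the WT ORS bar of Cebpa (3696) the tallest of that one.

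Trp63 was lower on the 2KO array of each population. Its brightest probe set read 5470 in 2KO and 10141 in WT basal epidermis, 5325 in 2KO and 6411 in WT matrix, and 7808 in 2KO and 10485 in WT ORS. It was thus 1.85-, 1.2- and 1.34-fold lower, below 2-fold in each case, with log2 ratios of -0.89, -0.27 and -0.43. The 2KO basal epidermis and 2KO matrix arrays had the lowest readings, and both the WT basal epidermis and WT ORS arrays stood above all 3 arrays of the 2KO.

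Another Trp63 probe set passed 2-fold in every population. It read 360 in 2KO against 768 in WT basal epidermis (2.13-fold lower), 415 in 2KO against 989 in WT matrix (2.39-fold) and 685 in 2KO against 1442 in WT ORS (2.10-fold). A further one was 1.93-, 1.87- and 1.39-fold lower, and the dimmest, which lay close to the floor, read 89.4 in 2KO and 125 in WT basal epidermis. All Trp63 probe sets above the floor on both arrays were lower in 2KO, 4 of 4 in basal epidermis and 3 of 3 in each of the follicle populations. Under all 9 settings of scaling, floor and probe set choice the Trp63 ratio was below 0 in each population, and in basal epidermis it lay between -1.0 and -0.85. There, 5.37% of all measured genes had a ratio as low or lower.

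Tfap2a encodes AP-2 alpha, a factor that acts with p63 on keratinocyte genes. It was 1.62-fold lower in basal epidermis (2992 in 2KO against 4841 in WT), 1.05-fold lower in matrix (3045 in 2KO against 3196 in WT) and 1.49-fold lower in ORS (2944 in 2KO against 4387 in WT). The 3 arrays of the 2KO read nearly alike, and all 3 WT arrays lay above them, WT matrix by little. Its 3 probe sets were all lower in basal epidermis and in ORS, with log2 ratios from -0.69 to -0.36 and from -0.58 to -0.11, and 2 of 3 were below 0 in matrix.

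Of its close relatives, Tfap2b and Tfap2e passed 2-fold and Tfap2c did not. Tfap2b was 2.19-fold lower in basal epidermis (596 in 2KO against 1308 in WT) and 3.15-fold lower in ORS (642 in 2KO against 2023 in WT). Tfap2e was 2.29-fold lower in basal epidermis (303 in 2KO against 693 in WT) and 2.48-fold lower in ORS (331 in 2KO against 821 in WT). Neither differed by 2-fold in matrix. Tfap2c was 1.26-fold lower in basal epidermis (2638 in 2KO against 3316 in WT), 1.89-fold higher in matrix (4175 in 2KO against 2208 in WT) and 1.2-fold higher in ORS (2264 in 2KO against 1893 in WT).

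The Krüppel-like factors Klf4 and Klf5 mark opposite ends of the programme, Klf4 being known for barrier formation in suprabasal cells and Klf5 for proliferating basal cells. Klf4 read 26831 in 2KO and 29323 in WT basal epidermis, 21656 in 2KO and 13231 in WT matrix, and 24463 in 2KO and 21190 in WT ORS. The WT matrix array stood well below the other 5, so that Klf4 was 1.64-fold higher in 2KO matrix, and its other probe set gave 1.80-fold (9015 in 2KO against 5007 in WT). In basal epidermis both probe sets were slightly below 0, with log2 ratios of -0.13 and -0.39. In matrix, the log2 ratio was 0.71 as deposited and 0.08 when arrays were set to the hybridisation controls, where the median of all genes was -0.58.

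Klf5 read 11840 in 2KO and 13400 in WT basal epidermis, 4419 in 2KO and 4429 in WT matrix, and 10062 in 2KO and 7737 in WT ORS. Both matrix arrays were low and nearly equal, while 2KO ORS was 1.30-fold above WT ORS. The second probe set of Klf5 ran the same way in basal epidermis and ORS (log2 -0.47 and 0.48), and the third was below the floor on all 6 arrays. Among other KLF genes, Klf2 was 3.89-fold lower in 2KO basal epidermis (272 in 2KO against 1057 in WT) and Klf9 2.46-fold higher in 2KO matrix (11875 in 2KO against 4822 in WT).

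The grainyhead-like factors bind 1 shared motif and govern epithelial junctions and barrier genes. Grhl3 had the largest difference of the 10 factors. Its single probe set read 3379 in 2KO and 813 in WT basal epidermis, 1649 in 2KO and 942 in WT matrix, and 398 in 2KO and 307 in WT ORS. It was 4.16-fold higher in basal epidermis (log2 2.06), 1.75-fold in matrix (0.81) and 1.30-fold in ORS (0.38). The 2KO array was the higher one in every population, and 2KO basal epidermis exceeded all other arrays. In basal epidermis 154 of the measured genes, 1.34%, had a ratio as high or higher.

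The ratio of Grhl3 in basal epidermis lay between 1.94 and 2.06 under all 9 settings. The floors and the choice of probe set could not move it, because the only Grhl3 probe set lay above every floor on both arrays. In matrix the ratio lay between 0.18 and 0.87, with the lowest value under scaling to the hybridisation controls, where it was still 0.75 above the median of all genes. The difference rests on the only Grhl3 probe set. The 2KO basal epidermis sample was also the one labelled female alone, and several marker lists differed on the same pair of arrays. Of 15 measured matrix, root sheath and shaft markers 2 were higher and 8 lower (median log2 -1.19, summed signal 2449 in 2KO against 7236 in WT). Of 9 measured immune markers 3 were lower and 0 higher (7922 in 2KO against 10298 in WT). Of 10 measured fibroblast markers 1 was higher and 1 lower, and their sum (22564 in 2KO against 39999 in WT) moved mostly with Postn (8188 in 2KO against 22431 in WT). Of 6 sebocyte markers 3 were lower and 0 higher, and of 11 ORS and stem cell markers 3 were higher and 0 lower. Of 19 measured products of the spinous and granular layers 6 were higher and 3 lower (124628 in 2KO against 103959 in WT). The part of these in the Grhl3 difference was not tested.

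Grhl1 went the other way. It read 1974 in 2KO and 2166 in WT basal epidermis, 3951 in 2KO and 5314 in WT matrix, and 1066 in 2KO and 1964 in WT ORS. It was 1.84-fold lower in ORS (log2 -0.88), 1.34-fold lower in matrix (-0.43) and 1.10-fold lower in basal epidermis (-0.13), also from a single probe set. In ORS 6.19% of measured genes had a ratio as low or lower, and scaling to a common median or to the hybridisation controls took Grhl1 past 2-fold (-1.13 and -1.04).

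Grhl2 differed little and in both directions. Its brightest probe set read 1984 in 2KO and 2745 in WT basal epidermis, 1987 in 2KO and 1680 in WT matrix, and 2849 in 2KO and 2173 in WT ORS. That is 1.38-fold lower in basal epidermis, 1.18-fold higher in matrix and 1.31-fold higher in ORS, and the other 3 probe sets were near or below the floor. With all its probe sets averaged, the matrix ratio was -0.67 instead of 0.24. The 3 grainyhead factors had no common direction in any population.

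**Figure D2:**
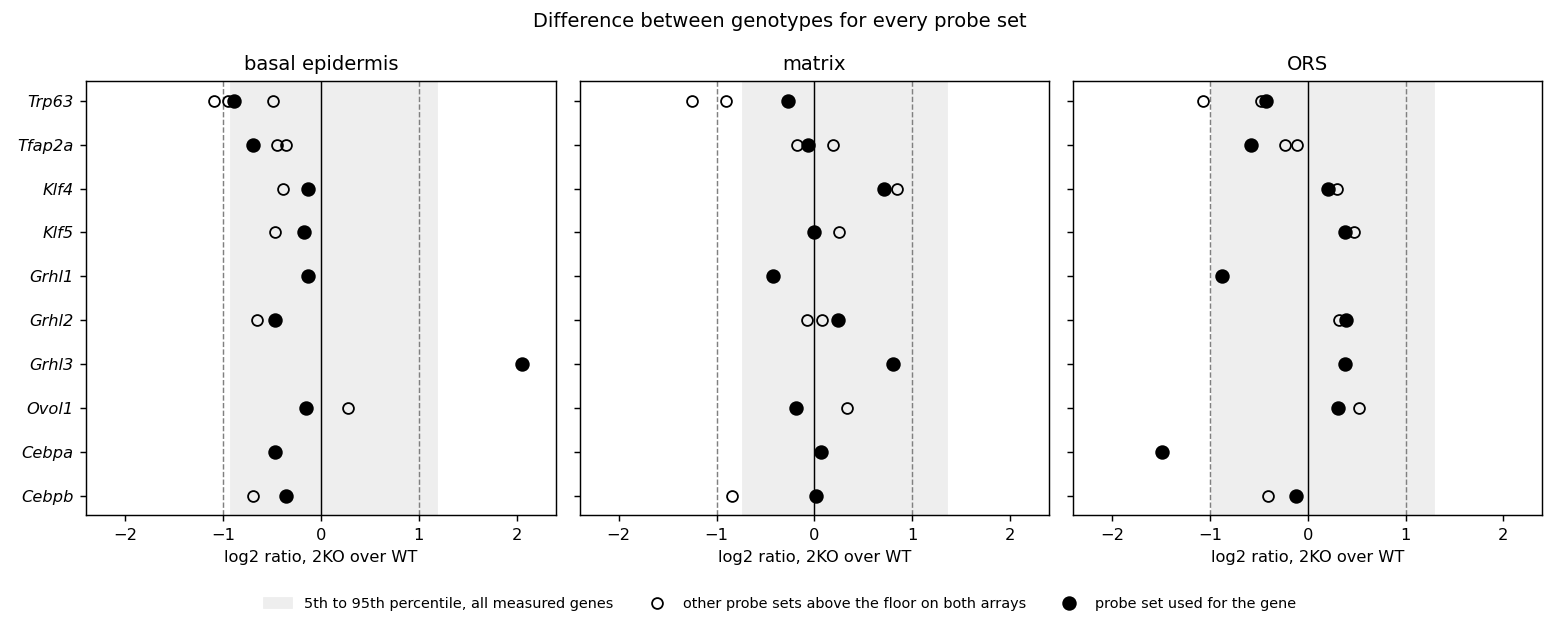
Log2 ratio of 2KO over WT for every probe set of the 10 factors in basal epidermis, matrix and ORS: filled points are the probe sets used for the genes, open points the other probe sets above the floor on both arrays, dashed lines 2-fold, and the grey band the 5th to 95th percentile of all measured genes. Grhl3 in basal epidermis (2.06) and Cebpa in ORS (-1.48) are the 2 filled points outside the dashed lines.

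Ovol1, a zinc finger repressor linked to the exit of keratinocytes from proliferation, read 4123 in 2KO and 4569 in WT basal epidermis, 4393 in 2KO and 4997 in WT matrix, and 1451 in 2KO and 1168 in WT ORS. Both ORS arrays were low, and no pair differed by more than 1.24-fold by this brightest probe set. Its second probe set was above 0 in all 3 populations (log2 0.27, 0.34 and 0.52), against -0.15, -0.19 and 0.31 for the first. The related Ovol2 was 2.15-fold lower in 2KO basal epidermis (194 in 2KO against 417 in WT).

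The C/EBP factors Cebpa and Cebpb act together in the step from basal to spinous cells. Cebpa also serves lipid-forming cells, among them adipocytes. Cebpa read 1321 in 2KO and 3696 in WT ORS, 2017 in 2KO and 2800 in WT basal epidermis, and 1353 in 2KO and 1286 in WT matrix. It was 2.80-fold lower in ORS (log2 -1.48), 1.39-fold lower in basal epidermis and 1.05-fold higher in matrix, from a single probe set. The WT arrays of ORS and basal epidermis were the 2 highest, and 2KO ORS lay at the level of both matrix arrays. In ORS 228 genes, 1.9%, had a ratio as low or lower, and the ratio lay between -1.74 and -1.46 under all 9 settings. As for Grhl3, the floors and the choice of probe set could not move it.

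Sebocyte markers were lower on the same ORS array. All 6 were at least 2-fold lower in 2KO ORS than in WT ORS, among them the nuclear receptor Pparg (6.13-fold, 210 in 2KO against 1289 in WT), Far2 (13.0-fold, 246 in 2KO against 3188 in WT) and Elovl3 (9.37-fold, 244 in 2KO against 2283 in WT), and all 6 were above the floor on both arrays. Their summed signal was 18510 in 2KO and 65062 in WT ORS, 16980 in 2KO and 22017 in WT basal epidermis, and 17556 in 2KO and 22713 in WT matrix. Other marker lists also differed between 2KO and WT ORS. Of 15 measured matrix, root sheath and shaft markers 2 were higher and 8 lower in 2KO (median log2 -1.12). Their summed signal was 3843 in 2KO against 7068 in WT. Of 11 measured fibroblast markers 2 were higher and 0 lower (40058 in 2KO against 29275 in WT). The part of all these markers in the Cebpa difference was not tested.

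Cebpb read 10569 in 2KO and 13517 in WT basal epidermis, 15414 in 2KO and 15201 in WT matrix, and 14786 in 2KO and 16026 in WT ORS. By brightest probe set it was the factor with the narrowest range over the 6 arrays, 1.52-fold from lowest to highest. Its other probe set varied more, from 2305 in 2KO basal epidermis to 6805 in WT matrix. This other probe set had ratios of -0.70, -0.84 and -0.40, all lower in 2KO, so that the 2 probe sets differed most in matrix (3790 in 2KO against 6805 in WT, where the brighter one was level). The related Cebpd was 3.14-fold higher in 2KO matrix (2148 in 2KO against 685 in WT).

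Across the 10 factors, 9 had a ratio below 0 in basal epidermis and 5 in each follicle population. The median log2 ratio was -0.27 in basal epidermis, beside 0.04 for all measured genes, 0.01 in the matrix, beside 0.03, and 0.05 in the ORS, beside 0.01. The count in basal epidermis was 9 under 8 of the settings and 8 when probe sets were averaged, when Ovol1 was above 0. With signals as deposited, basal epidermis had 11527 measured genes, and 5367 of them lay below 0. Matrix had 5481 such genes among 11661, and ORS had 5875 among 11994. The 5 of 10 factors below 0 in each follicle population were thus near the share of all genes. Trp63, Tfap2a and Grhl1 were below 0 and Grhl3 above 0 in all 3 populations under every setting that measured them. Tfap2a was near level in matrix, where its highest ratio was -0.02. Relative to the median of all genes it lay there between -0.14 and 0.002. In matrix, Cebpa, Cebpb, Grhl2, Klf5 and Ovol1 changed sign between settings. For Cebpa this happened only under the 2 scalings that lower all genes together, and relative to the median of all genes it lay within 0.14 of 0 under all settings. Relative to that median Klf5 lay between -0.08 and 0.04, Cebpb between -0.39 and 0.06, Ovol1 between -0.26 and 0.10 and Grhl2 between -0.65 and 0.30.

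Over the 3 populations together, the genotype was tested with limma on log2 signal, with population as a block, which leaves 2 residual degrees of freedom. None of the 10 factors passed an adjusted p of 0.05 (Benjamini-Hochberg over all 12651 genes above the floor on any array), and neither did any other gene (0 of 12651, 0.0%). At an unadjusted p under 0.05 there were 1896 genes (15%), 2 of the 10 factors among them, Trp63 and Grhl3. This set depended on the scaling. With a common median it held 2501 genes (19.8%), 3 factors among them, Trp63, Tfap2a and Grhl1. With the hybridisation controls it held 2210 genes (17.4%), 4 factors among them, the same and Cebpa. Grhl3 was in neither. The values that follow are for the signals as deposited. Trp63 had a mean log2 signal of 12.58 in 2KO and 13.10 in WT, a difference of -0.53 ± 0.18 (SE, n = 3 arrays each, limma adjusted p = 0.311), lower in 3 of 3 populations. Grhl3 had a mean of 10.35 in 2KO and 9.27 in WT, a difference of 1.08 ± 0.37 (limma adjusted p = 0.31), higher in 3 of 3. Cebpa differed by -0.63 ± 0.34 (limma adjusted p = 0.447), lower in 2 of 3. Without the matrix arrays 228 genes (1.85%) passed, and still 0 of the 10 factors. Whether the 3 arrays of a genotype came from separate mice is not known. The error in this fit comes from how the difference between 2KO and WT varied over the 3 populations, not from a spread among mice. For each gene limma draws that variance towards a value pooled over all genes (2.21 prior against 2 residual degrees of freedom). A difference that varies between populations, such as that of Grhl3 or Cebpa, raises its own error. A factor that differs in 1 population alone could thus be missed.

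The spread over the 6 arrays was widest for Grhl3, 11.0-fold from lowest to highest, followed by Grhl1 (4.98-fold), Ovol1 (4.28-fold) and Klf5 (3.03-fold). By their brightest probe sets, Trp63, Grhl2, Tfap2a and Cebpb each stayed within 2-fold. Dimmer probe sets of Trp63, Grhl2 and Cebpb varied more. One of Trp63 ran from 360 in 2KO basal epidermis to 1442 in WT ORS. The other one of Cebpb ran from 2305 in 2KO basal epidermis to 6805 in WT matrix. Levels were also compared between populations within each genotype. These ratios share arrays with each other and with those above. Between basal epidermis and ORS, Grhl3 and Ovol1 were higher in basal epidermis in both genotypes and 0 factors were lower, with log2 ratios of 3.08 in 2KO and 1.40 in WT for Grhl3 and 1.51 in 2KO and 1.97 in WT for Ovol1. Of all genes in 2KO 11.0% differed by 2-fold, 4.32% higher in basal epidermis and 6.73% lower, and in WT 4.15% were higher and 5.88% lower.

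Between matrix and ORS, Grhl1, Grhl3 and Ovol1 were higher in matrix in both genotypes (log2 1.89, 2.05 and 1.60 in 2KO, and 1.44, 1.62 and 2.10 in WT), where 5.2% of all genes in 2KO and 8.6% in WT were higher. The gene called lower in matrix differed by genotype. It was Klf5 in 2KO (-1.19, against -0.80 in WT) and Cebpa in WT (-1.52, against 0.03 in 2KO). The second Klf5 probe set was within 2-fold in both genotypes (-0.73 in 2KO and -0.51 in WT). Of all genes 8.61% in 2KO and 13.9% in WT were lower, and 13.8% in 2KO and 22.5% in WT differed either way.

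Between basal epidermis and matrix, Klf5 was higher in basal epidermis in both genotypes (log2 1.42 in 2KO and 1.6 in WT) and Grhl1 lower (-1.0 in 2KO and -1.29 in WT). The second Klf5 probe set gave 0.93 in 2KO, within 2-fold, and 1.64 in WT. Klf4 and Cebpa were less than 2-fold higher in 2KO (0.31 and 0.58) and over 2-fold higher in WT (1.15 and 1.12). Grhl3 was higher in basal epidermis in 2KO (1.03) and near level in WT (-0.21). Of all genes in 2KO 14.2% differed, 7.29% higher and 6.9% lower, and in WT 25.2% differed, 13.8% higher and 11.3% lower. Whether any of these ratios differs between the genotypes could not be tested with 1 array each.

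**Figure D3:**
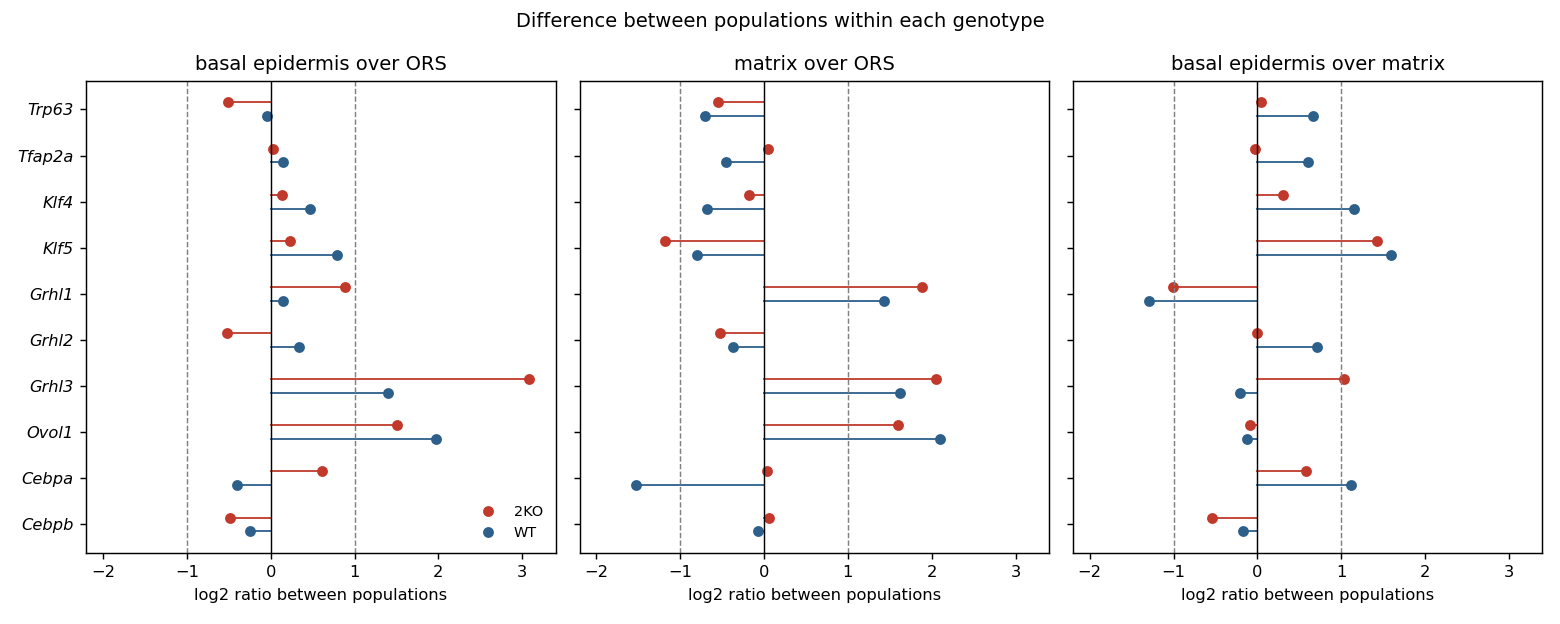
Log2 ratio between populations (basal epidermis over ORS, matrix over ORS, basal epidermis over matrix) for each factor within 2KO (red) and WT (blue), with dashed lines at 2-fold and 1 array per population and genotype. Grhl3 reaches 3.08 for basal epidermis over ORS in 2KO against 1.40 in WT, and Cebpa for matrix over ORS is 0.03 in 2KO against -1.52 in WT.

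For the 6 factors with a range of at least 2-fold over the arrays, the genes with the most similar pattern were found among 4849 genes that also varied by 2-fold and whose highest signal reached 4 times the floor. The measure was Pearson's r of log2 signal over the 6 arrays, a description that rests on few points sharing 2 genotypes and 3 populations. Closest to Grhl3 were the tight junction gene Cldn4 (r = 0.991), the sulfotransferase gene Sult2b1 (0.974) and Dnph1 (0.971). Cldn4 read 10438 in 2KO and 4525 in WT basal epidermis, 6801 in 2KO and 5599 in WT matrix, and 2825 in 2KO and 2211 in WT ORS, with 2KO basal epidermis the highest array, as for Grhl3. Only 16 genes had an r over 0.9 with Grhl3 and 24 with Ovol1, against 87 with Cebpa, 210 with Klf5, 226 with Klf4 and 329 with Grhl1.

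Closest to Cebpa were Paqr7 (r = 0.995), the fatty acid oxidation gene Ech1 (0.990) and Dhrs7 (0.988). Ech1 read 1160 in 2KO and 3063 in WT ORS, 1715 in 2KO and 2700 in WT basal epidermis, and 1055 in 2KO and 1106 in WT matrix. Odc1 (0.983), which encodes ornithine decarboxylase, was closest to Ovol1, Hmgn5 (0.996) to Grhl1, Srgap2 (0.992) to Klf4 and Coq10b (0.995) to Klf5.

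**Figure D4:**
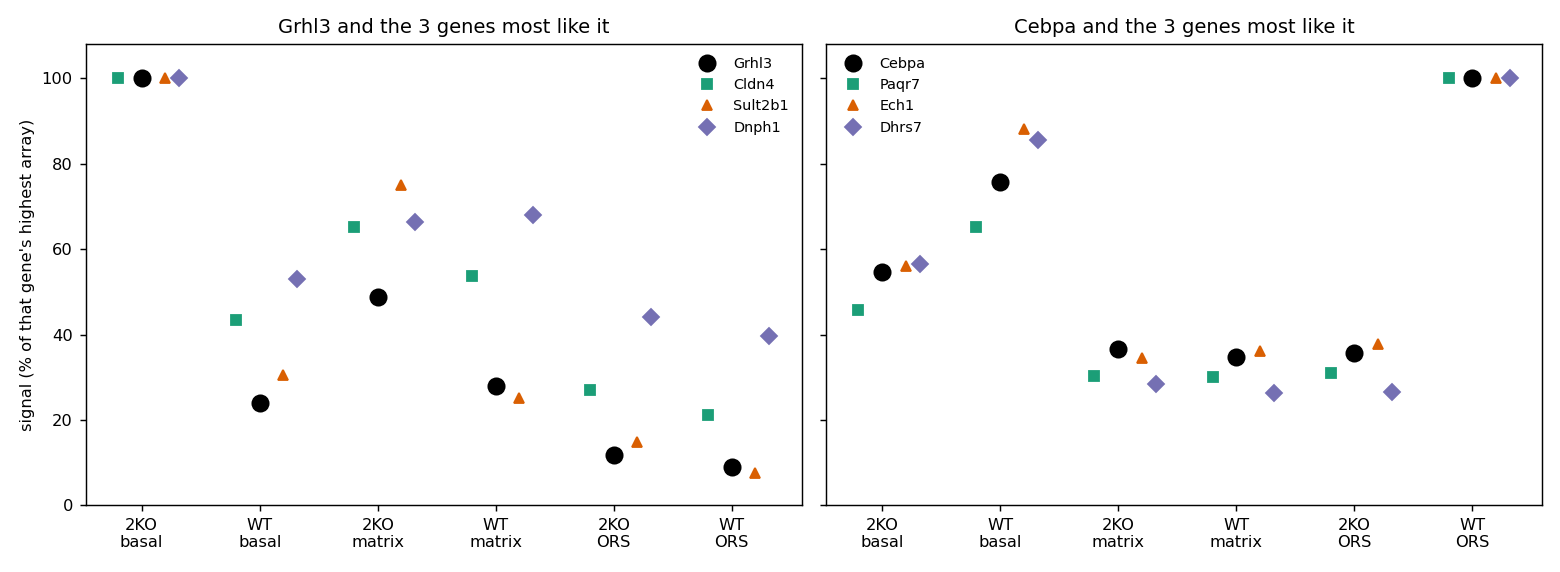
Signal on each of the 6 arrays as a percentage of that gene's highest array, for Grhl3 (left) and Cebpa (right) and the 3 genes with the most similar pattern of each. Grhl3 and its 3 genes peak on the 2KO basal epidermis array, and Cebpa and its 3 genes on the WT ORS array. The genes were picked for their likeness over these same arrays.

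Lists of related genes were described beside the factors, and their matrix values carry the dependence on scaling given above. Their counts stand beside the shares of all measured genes. These were 6.59% higher and 4.09% lower in basal epidermis, and 9.03% higher and 1.62% lower in matrix. For ORS they were 8.16% higher and 4.75% lower. Of other transcription factors of the epidermis, 5 of 31 were higher and 8 lower in 2KO basal epidermis, with a median of -0.38, beside 0.04 for all genes. Higher were Etv4 (4.13-fold) and Prdm1 (3.64-fold), which encodes the transcriptional repressor Blimp1. Lower were the chromatin organiser Satb1 (6.50-fold), Gata3 (3.87-fold), Pou3f1 (3.02-fold) and the helix-loop-helix inhibitor Id1 (2.98-fold). Of the same 31 on the matrix arrays, 3 were higher and 2 lower (median 0.34), with the ETS factors Ehf (at least 3.26-fold) and Elf3 (3.14-fold) and the aryl hydrocarbon receptor gene Ahr (2.44-fold) higher, and Hes1 (2.44-fold) and Dlx3 (2.21-fold) lower.

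In ORS 7 of the 31 were higher and 6 lower (median -0.27). Rora (4.16-fold), Dlx5 (3.57-fold) and Etv4 (2.85-fold) were higher. Zfp750, which acts after p63 in terminal differentiation, was 3.97-fold lower (224 in 2KO against 889 in WT), Ehf 3.28-fold and Ahr 2.53-fold lower. Ehf and Ahr were thus lower in 2KO ORS and higher in 2KO matrix.

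Of 17 family relatives of the factors, 1 was higher and 4 lower in basal epidermis (median -0.42), where Tfcp2l1, a distant grainyhead relative, was 2.28-fold higher. On the matrix arrays 3 of 16 measured passed 2-fold, all higher (median 0.69), where 9.03% of all genes were higher and 1.62% lower. In ORS 1 of 17 was higher and 2 lower (median 0.26). Trp73, the sister gene of Trp63, was higher in 2KO matrix (299 in 2KO against 119 in WT, 2.52-fold) and 2KO ORS (800 in 2KO against 346 in WT, 2.31-fold).

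Basal genes linked to Trp63, such as the keratins Krt5 and Krt14 and the hemidesmosome genes, were mostly within 2-fold in basal epidermis. There, 0 of 18 were higher and 1 was lower, the growth factor receptor gene Fgfr2 (2.82-fold, 1862 in 2KO against 5259 in WT), with a median of -0.21. On the matrix arrays 5 of 18 passed 2-fold, all higher (median 0.66), namely Lamb3 (3.18-fold), Krt14 (2.87-fold), Dst (2.72-fold), Itgb4 (2.47-fold) and Krt5 (2.10-fold). Of all genes in matrix, 9.03% were higher and 1.62% lower. In ORS 1 of 18 was higher, Fras1 (2.44-fold), and 0 lower (median 0.09).

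Barrier genes linked to the grainyhead factors differed in both directions. In basal epidermis 4 of 16 measured were higher and 3 lower (median -0.15). The claudin genes Cldn7 (at least 6.72-fold) and Cldn4 (2.31-fold) and the transglutaminase gene Tgm1 (2.23-fold, 1201 in 2KO against 540 in WT) were higher, and so was the desmosomal cadherin gene Dsc1 (2.02-fold). The cadherin gene Dsg1a was 4.23-fold lower and Tgm5 2.24-fold lower. On the matrix arrays 4 of 16 passed 2-fold, all higher (median 0.65), namely Cldn7 (4.03-fold), Tgm1 (2.41-fold), Epcam (2.18-fold) and Tgm5 (at least 2.05-fold). Again, 9.03% of all genes in matrix were higher and 1.62% lower. In ORS 1 of 16 was higher, Cldn7 (at least 2.91-fold), and 2 were lower, Tgm5 (2.07-fold) and Abca12 (at least 2.03-fold), with a median of -0.27.

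Of 19 measured products of the spinous and granular layers, 6 were higher and 3 lower in basal epidermis (median 0.29), with Calml3 5.29-fold, Sprr1b 4.90-fold, Cnfn at least 4.39-fold and Lor 3.41-fold higher and the protease gene Klk7 6.38-fold lower, besides Dsg1a. The matrix arrays had 8 of 20 higher and 2 lower (median 0.79), with Krtdap 9.31-fold, Sprr1b 6.25-fold, Calm4 4.54-fold, Sprr1a 3.87-fold, Klk7 3.60-fold and Sbsn 3.55-fold higher. In ORS 3 of 18 were higher and 4 lower (median -0.58), with Klk7 12.3-fold, Calm4 7.58-fold (663 in 2KO against 5026 in WT), Sprr1a 3.95-fold and Flg at least 2.16-fold lower, and Sprr2d 3.15-fold and Krtdap 2.07-fold higher.

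**Figure D5:**
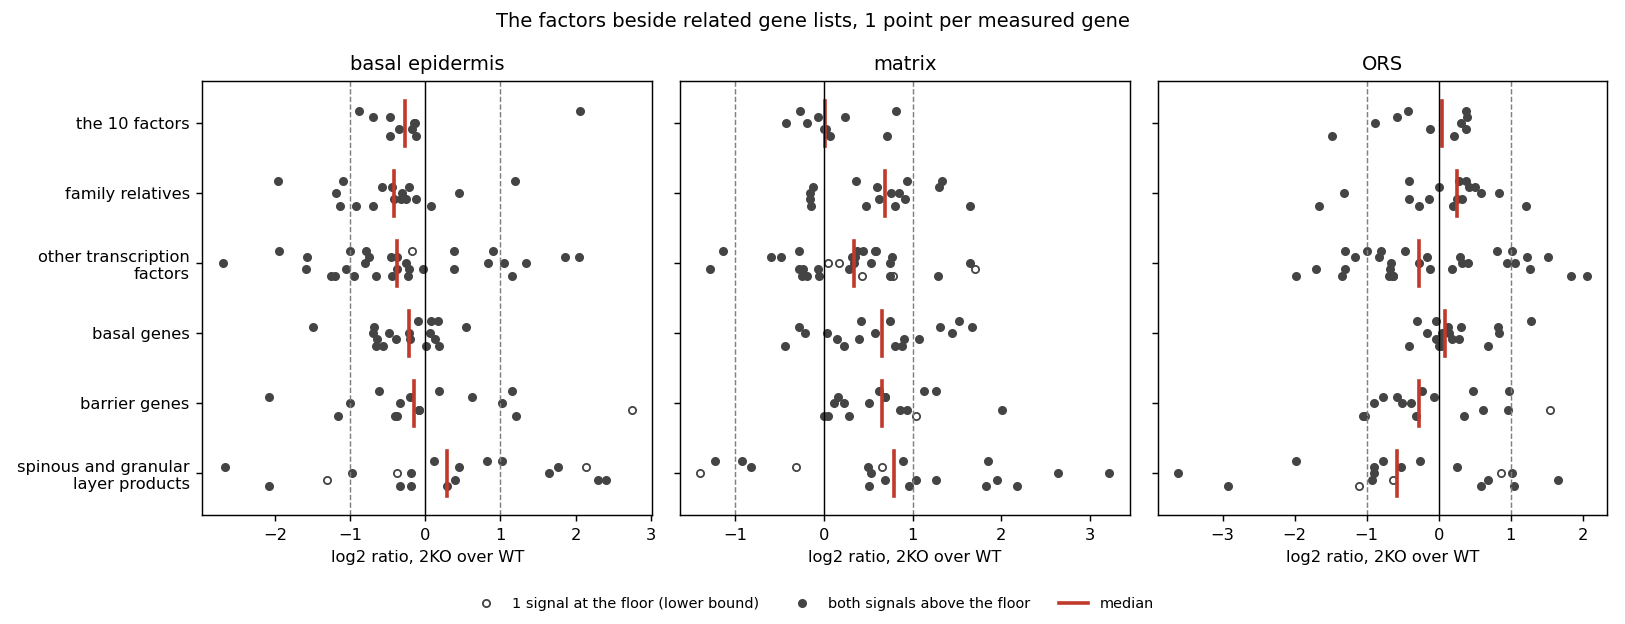
Log2 ratio of 2KO over WT for each measured gene of the 10 factors and of 5 related lists in basal epidermis, matrix and ORS; open points have 1 signal at the floor, red lines are medians and dashed lines 2-fold. Among the 10 factors, Grhl3 in basal epidermis (2.06) and Cebpa in ORS (-1.48) lie outside the 2-fold lines, and the spinous and granular layer products reach further, to -3.62 for Klk7 in ORS.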

How the data were processed

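Total RNA of 6 sorted samples was hybridised to 1 array each. The authors deposited 1 intensity (signal) per probe set, on a linear scale as its values show, made with MAS5 per the submitters' processing notes, from background-subtracted images per the series text. Any detection calls and the MAS5 version are not given in the sources used here. All 6 arrays have the same 2% trimmed mean of 500.003, a scaling that removes global differences in RNA. Of 45101 probe sets, 64 are controls, 932 name several genes and were left out, and 34945 name 1 gene. Names came from GEO's platform annotation.

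Signals were used as deposited, with a floor at the median (83.2), and log2 ratios were taken with Python 3.11.15 and pandas 2.3.3. Array number limits the precision: with 1 array per group, ratios within a population have no test. A limma 3.58.1 fit of genotype with population as a block, added after seeing the data, tested the genotype over the 3 populations. The members and gene lists were chosen with earlier results of these data known. All 10 factors are named, with up to 6 called genes of each related list per comparison and population, those with the largest ratios, and up to 3 genes of like pattern per factor. Sebocyte, immune, fibroblast, muscle and population markers came from 9 marker lists. The 8 alternatives were floors at the 25th and 75th percentile, a pseudocount of 32, scaling to a common median or to the hybridisation controls, quantile normalization, averaged probe sets, and omission of cross-hybridising probe sets (IDs ending in _x_at or _s_at).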

Additional observations from a re-analysis of the deposited data

How the results depend on the processing

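Between the genotypes, Grhl3 (basal epidermis) stayed 2-fold or more higher and Cebpa (ORS) 2-fold or more lower under all 8 alternatives. The floors, averaged probe sets and omission of cross-hybridising probe sets could not move either ratio, as each gene has a single probe set with signals above these floors. Scaling to a common median added 1 lower factor in basal epidermis (Trp63, now 1 against 0) and, like scaling to the hybridisation controls, gave 2 lower factors in ORS against 1. The controls also gave 1 lower factor in matrix (Grhl1) against 0. The common median, the controls and the pseudocount left 0 factors lower in 2KO basal epidermis than in 2KO matrix against 1. Quantile normalization left 1 higher there against 2, and the controls 1 higher in WT basal epidermis than in WT matrix against 3. Averaged probe sets left 0 lower in 2KO matrix than in 2KO ORS against 1, and the floor at the 75th percentile 1 higher in WT basal epidermis than in WT ORS against 2. As reported, Grhl1 lay at the limit for 2KO basal epidermis over 2KO matrix (log2 -1.0015). The floor at the 75th percentile, 465 units, lay above the Grhl3 signal in WT ORS (307). Beyond these values, the cause of the changes was not tested.

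The number of all genes called depended on the floor, which sets how many genes can be called. At the 25th percentile it was 2465, 2585 and 2769 between the genotypes in basal epidermis, matrix and ORS, and at the 75th 470, 390 and 619, against 1231, 1242 and 1549. Between populations the 25th percentile gave 2116 for basal epidermis and ORS in WT, and in 2KO 2460 for basal epidermis and ORS, 2784 for matrix and ORS, and 2849 for basal epidermis and matrix. The 75th gave 539, 728 and 749 for these pairs in 2KO and 523, 1276 and 1464 in WT. The reported counts were 1322, 1672 and 1691 in 2KO and 1136, 2576 and 2839 in WT. Scaling to the controls gave 2595 calls between the genotypes in matrix. The fit of genotype with population as a block, chosen after seeing the data, called 0 genes; with a common median it called 1, Zic1 (named after its value was seen), without the matrix arrays 228, and with the controls or without the arrays of basal epidermis or ORS 0. It called 0 of the 10 factors throughout. The labels give no replicate numbers, so samples were matched by population alone. Without replicates, low signals and factors with a single probe set (Grhl1, Grhl3, Cebpa) have no second measurement here.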
